A study of Homo sapiens with 16 samples.

Results

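Newly made RNA in HAP1 cells was compared between 5 h and 1 h of treatment with DRB. The comparison rests on 4 of the 16 libraries of the series: 2 libraries of cells given 100 µM DRB for 1 h and 2 of cells given the same dose for 5 h, chosen by their labels. HAP1 is a near-haploid derivative of the leukaemia line KBM-7, here with a wild-type genotype. In the TT-chem-seq assay, 1 mM 4-thiouridine (4-SU) was present for the last 30 min of the treatment, and the RNA that had taken it up was biotinylated, captured and sequenced. Untreated cells labelled in the same way (2 libraries) give the reference level, and cells without 4-SU (2 libraries) give the background of the capture. Each pair of libraries is labelled as biological replicates, but no label says that they came from separate cultures. P-values therefore measure no more than the spread within these pairs, which may be technical.

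DRB is a nucleoside analogue that inhibits CDK9, the kinase of P-TEFb. P-TEFb releases RNA polymerase II from its pause near the promoter into elongation. Polymerases that are already past the pause when DRB is added can run on to the end of the gene, so in long genes elongation ends later than in short genes. RNA polymerase I, which makes the 45S rRNA precursor, and RNA polymerase III, which makes 5S rRNA and tRNA, do not need this release step.

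The gene table holds 9944 gene regions, mostly of protein-coding genes, and is called the mRNA table here. Its regions took 171197.5 and 290828 tags at 1 h, and 65600 and 55845.5 tags at 5 h. A tag is a mapped read, and each mate of a pair counts 0.5. These were 0.767% and 0.826% of all tags of the libraries at 1 h, and 0.346% and 0.397% at 5 h. Of the regions, 2599 had enough tags to be tested. Of the 14 blood lineage genes listed as markers of the cell line's origin, 7 were in the table. RUNX1 had 497 and 766.5 tags in untreated cells, SPI1 had 2.5 and 4.5, and CD33 had none. Tags were counted without regard to strand, so signal cannot be assigned between genes that overlap or lie antisense to each other.

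Every change is given on up to 2 scales. The first is relative to mRNA: tags over the sum of the mRNA table in the same library, corrected for composition. The second uses the authors' factors for the yeast RNA that was added to each sample, and gives levels as a percentage of untreated cells, each library against the untreated library that has its replicate number. In bulk samples, signal from fewer cells and less signal per cell cannot be told apart on either scale. P-values are from limma, adjusted over all features tested, and a feature was called at an adjusted p under 0.05.

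The summed mRNA signal fell between 1 h and 5 h, and no other RNA class passed the test on the spike-in scale. On the spike-in scale the summed mRNA signal was 30.6% and 36.1% of untreated at 1 h, and 17.6% and 17% at 5 h. Both libraries at 5 h lay below both at 1 h. The means were 33.3% ± 3.89 and 17.3% ± 0.426 (SD, n = 2), a log2 change of -0.94 ± 0.22 (SE) with a limma adjusted p of 6.07e-05. Cells without 4-SU gave 1.89% of untreated. Without replicate 1 of the 5 h group, this call was lost (limma adjusted p = 0.0675).

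The 45S precursor stood at 96.0% and 121% of untreated at 1 h, and at 130.0% and 123% at 5 h. Both libraries at 5 h were above both at 1 h, but the difference did not pass the test (log2 0.23 ± 0.19, limma adjusted p = 0.321). Of the 5 annotated 45S units, RNA45SN1 to RNA45SN5, limma and edgeR called 0 on this scale, and 0 had an unadjusted p under 0.05. These copies are nearly identical, so their separate values are uncertain. The 5S rRNA genes gave 98.9 and 74.8 spike-in scaled tags per 10M at 1 h, and 139 and 140.5 at 5 h, so both libraries at 5 h were above both at 1 h. The untreated libraries lay far apart, at 77.3 and 139, so in percent of untreated the values were 128% and 53.8% at 1 h, and 179% and 101% at 5 h. Their log2 change of 0.69 ± 0.34 had a limma adjusted p of 0.0701, and of 0.0244 without replicate 1 of the 1 h group. The sum over 631 tRNA genes was 109% and 87.3% at 1 h, and 95.6% and 89.4% at 5 h. These ranges overlapped, and the log2 change of -0.08 ± 0.26 did not pass (limma adjusted p = 0.83).

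Relative to mRNA, whose sum fell, all 3 classes were higher at 5 h. The log2 change was 1.13 ± 0.24 for 45S (limma adjusted p = 0.00349), 1.59 ± 0.27 for 5S (0.00114) and 0.83 ± 0.18 for tRNA (0.00381). All 5 45S units passed in that direction, with changes of 0.79 to 1.17. Without replicate 1 of the 5 h group, the 45S call relative to mRNA was lost (limma adjusted p = 0.0687).

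Single tRNA genes did not move together. Of 36 tRNA genes tested, 2 rose and 4 fell on the spike-in scale, and 10 were higher and 1 lower relative to mRNA. Of the tested gene regions, 10.3% rose and 48.2% fell on the spike-in scale, and 24.5% were higher and 28.5% lower relative to mRNA. The share of tRNA genes higher relative to mRNA was thus near that of the gene regions. The shares that rose or fell on the spike-in scale, and the share lower relative to mRNA, were smaller than those of the gene regions. The gene tRNA-SeC-TCA-1-1, for the tRNA that inserts selenocysteine, had 71.5 and 146.5 tags at 1 h and 128.5 in each library at 5 h. Its level was 177% and 183% of untreated at 1 h, and 479% and 393% at 5 h, with no overlap (log2 1.25 ± 0.37, limma adjusted p = 0.00171). The other riser, tRNA-Ile-TAT-1-1, went from 66.9% and 60.5% to 184% and 134% of untreated (log2 1.20 ± 0.45, limma adjusted p = 0.0157). In the opposite direction, tRNA-Leu-CAA-3-1 went from 172% and 83.8% to 33.9% and 19.8% of untreated. Its log2 change was -2.15 ± 0.39 (limma adjusted p = 2.36e-07), and it was the 1 tRNA gene lower relative to mRNA as well. When single libraries were left out, 0 to 2 tRNA genes were called higher and 1 to 4 lower on the spike-in scale, with 0 higher without replicate 2 of the 5 h group.

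**Figure D1:**
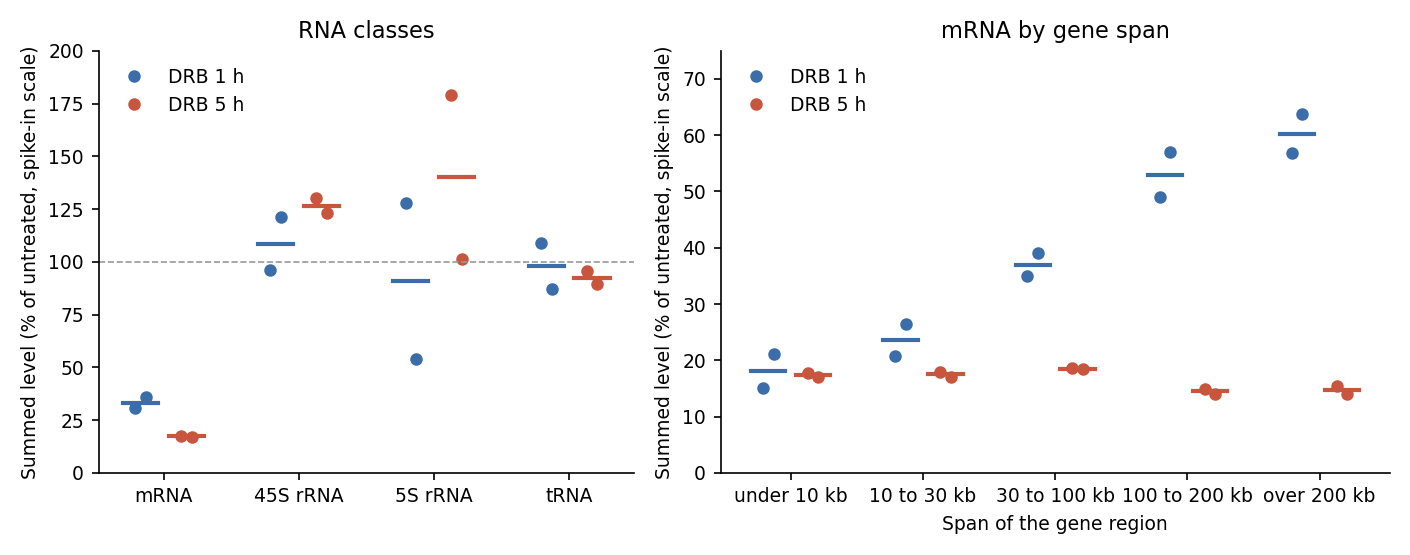
Summed signal of each RNA class (left) and of the mRNA table by gene span (right), in percent of the same-numbered untreated library on the spike-in scale. Points are libraries (2 a group), bars are means. At 5 h all 5 span classes lie between 14.5% and 18.5%, while at 1 h they range from 18% to 60.3%.

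Between 1 h and 5 h, long genes lost a larger share of their own signal than short genes. Gene regions under 10 kb had already lost most of it at 1 h: they gave 15.0% and 21% of untreated at 1 h, and 17.8% and 17% at 5 h. Regions over 200 kb still gave 56.9% and 63.7% at 1 h, but 15.4% and 14.1% at 5 h. The classes between them followed the order of span at 1 h, with means of 23.6% ± 3.95 (10 to 30 kb), 37.0% ± 2.91 (30 to 100 kb) and 52.9% ± 5.65 (100 to 200 kb; SD, n = 2). At 5 h the same classes gave 17.5% ± 0.567, 18.5% ± 0.0732 and 14.5% ± 0.636, no longer in the order of span.

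Expressed as the share of the 1 h level left at 5 h, the regions under 10 kb kept 99.6% ± 26.6, and those of 10 to 30 kb 75.5% ± 15.0. The share was 50.2% ± 4.15 for 30 to 100 kb, 27.5% ± 4.14 for 100 to 200 kb and 24.6% ± 3.55 for regions over 200 kb (SD, n = 2). The last 2 classes did not differ beyond their spread. Accordingly, regions of at least 100 kb held 18.3% ± 0.176 of all mRNA tags in untreated cells, 30.4% ± 0.254 at 1 h and 15.4% ± 0.241 at 5 h (SD, n = 2). By group means on the spike-in scale, these regions made up 46.3% of the fall in summed mRNA signal between the times (41.5% to 55.7% over the pairs of a 1 h and a 5 h library), and regions of 30 to 100 kb 41.2% (38.5% to 45.8%). The share of tested genes called lower on the spike-in scale was 12.9% under 10 kb, 28.2% for 10 to 30 kb, 58.8% for 30 to 100 kb, 79.9% for 100 to 200 kb and 67.9% above.

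Over all tested genes, 1520 were called on the spike-in scale (58.5%): 1253 fell (48.2%) and 267 rose (10.3%). Relative to mRNA, 1378 were called (53.0%): 741 were lower (28.5%) and 637 higher (24.5%). All 741 genes lower relative to mRNA also fell on the spike-in scale, and all 267 risers were also higher relative to mRNA. Another 370 genes were higher relative to mRNA without passing the spike-in test: they kept a median of 18.1% of untreated at 1 h and 23.9% at 5 h, and had a median span of 18294.5 bp. The median log2 change of all tested genes was -0.89 on the spike-in scale and -0.09 relative to mRNA. Without replicate 1 of the 1 h group, 155 genes rose on the spike-in scale, and 240 were higher and 254 lower relative to mRNA. Without replicate 2 of that group, 826 fell on the spike-in scale, and 348 were higher and 306 lower relative to mRNA. In the spike-in fit the prior degrees of freedom were infinite, so every gene shared the trended spread and its p-values can be extremely small for 2 libraries a group. Fold changes and the fit relative to mRNA are therefore given for the genes named.

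**Figure D2:**
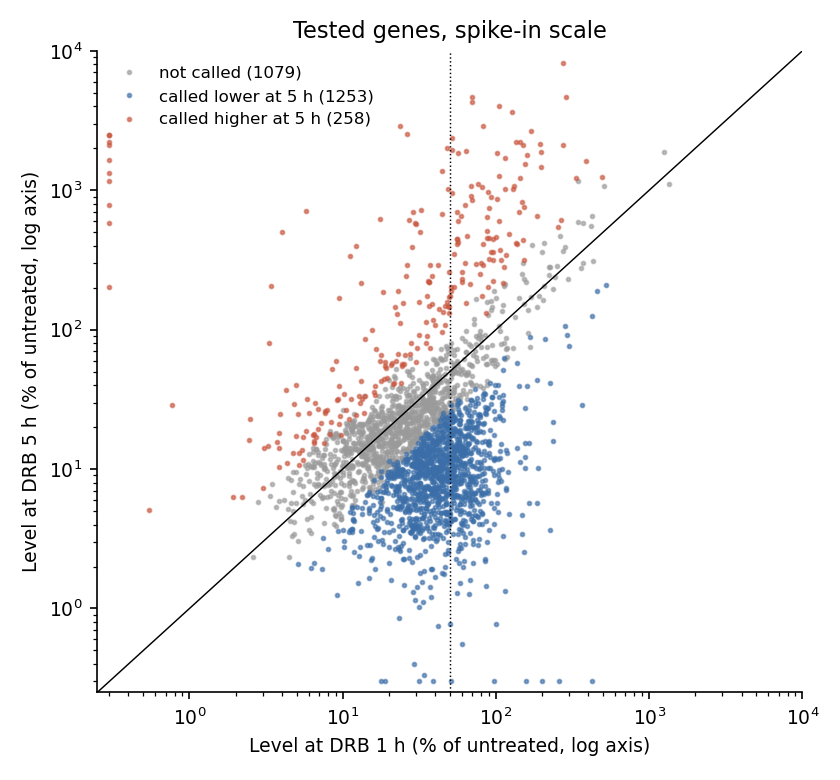
Level of each tested gene at 1 h (horizontal) and 5 h (vertical) of DRB, in percent of untreated on the spike-in scale, on log axes; values under 0.3% are drawn at 0.3%. Colours mark the spike-in calls, the solid line equal levels and the dotted line 50% at 1 h; 9 of the 267 risers have no tag in an untreated library and are not drawn.

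Genes lost late were those that still had at least 50% of their untreated level at 1 h and then fell. There were 491, and by this rule they had a median of 66.1% of untreated at 1 h and 11.2% at 5 h. Their median span was 81436 bp, against 39761 bp over all tested genes, and 44.0% spanned at least 100 kb, against 18.4% of all tested genes. At 5 h, 434 of them were under 25% of untreated. A further 762 genes were already under 50% at 1 h and fell further, from a median of 33.5% to 7.77%.

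The largest falls left almost no tags at 5 h. MAN2B2, an alpha-mannosidase gene, had 105.5 and 131.5 tags at 1 h, 109% and 91.5% of untreated. At 5 h it had 1 tag in the first library and none in the second. The pooled ratio of 5 h over 1 h was 0.00812 on the spike-in scale, with a 95% exact counting interval from 0.000205 to 0.0457 (limma adjusted p relative to mRNA = 8.96e-05).

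CWF19L2, which encodes a factor linked to splicing, behaved alike in its tags. It had 80.5 and 115.5 tags at 1 h (59.2% and 61.7% of untreated), against 1 and 0 at 5 h. POC1A, a centriole protein gene, went from 85.3% and 89.2% of untreated to 4.21% and 1.74%, a pooled ratio of 0.0364. SH3PXD2B, which encodes an adaptor of podosomes, had 449 and 830 tags at 1 h and 24 and 7 at 5 h, or 62.5% ± 11.3 and 2.92% ± 2.07 of untreated (SD, n = 2). The 1 h and 5 h libraries did not overlap for any of these, which the rule that chose them required.

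SUMF1, which activates sulfatases, LHFPL2 and PDE7A, a cyclic AMP phosphodiesterase, completed the late-lost genes among the largest falls, together with the cell cycle repressor E2F7. SUMF1 went from 66.8% ± 13.3 to 1.28% ± 0.150 of untreated, and LHFPL2 from 60.7% ± 1.96 to 2.0% ± 0.291 (SD, n = 2). PDE7A and E2F7 differed strongly between the 1 h libraries, at 49.2% and 120% for PDE7A and at 108% and 34.5% for E2F7.

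Not all of the largest falls were in long or late-lost genes. KLF15, which encodes a Krüppel-like transcription factor, spans 14809 bp and was at 19.8% and 17.6% of untreated at 1 h. It went from 94 and 124.5 tags to 1 and 0, a pooled ratio of 0.00883 on the spike-in scale (limma adjusted p relative to mRNA = 9.25e-05). RICTOR, a subunit of the mTORC2 kinase complex, had 56 and 105 tags at 1 h and 1 and 0 at 5 h. FAM196A had 33 and 62 tags at 1 h and none at 5 h, and was at least 16.5-fold lower on the spike-in scale, taking 3 tags over the 5 h group. The cytokine gene CSF1 (53.7% and 9.20% of untreated at 1 h) and the membrane-shaping BIN1 (40.1% and 52.7%) were also among the 12, with at most 5 tags in a 5 h library. BIN1 lost its call relative to mRNA without either 1 h library in turn (log2 -3.65 and -3.25).

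A list of 16 long genes, most of them for chromatin regulators, had 4 members tested, and all 4 were called lower on both scales. Their median log2 change was -2.44 on the spike-in scale, against -0.89 over all tested genes. Over all tested genes 48.2% were called lower on that scale, and 79.9% of those spanning 100 to 200 kb and 67.9% of longer ones, so 4 of 4 is near what genes of such a span gave. Their summed level was 49.3% and 57.6% of untreated at 1 h, and 9.33% and 8.05% at 5 h. CREBBP, a histone acetyltransferase gene of 155674 bp (hg38 chr16:3725053-3880726, minus strand, as the files give it), had 478.5 and 817.5 tags at 1 h, and 46 and 28 at 5 h. Its level was 57.9% and 66.0% of untreated at 1 h and 8.37% and 5.55% at 5 h, without overlap (log2 -2.24 ± 0.24 relative to mRNA, limma adjusted p = 0.00013). The exostosin gene EXT1, for an enzyme of heparan sulfate synthesis, kept 56.7% ± 2.33 and 8.73% ± 0.888, the chromatin remodeller ATRX 44.4% ± 11.4 and 8.75% ± 0.276, and the cohesin loader NIPBL 46.3% ± 2.90 and 12.6% ± 0.218 of untreated at the 2 times (SD, n = 2). The call of NIPBL relative to mRNA was lost without either 1 h library in turn (limma adjusted p = 0.11 and 0.0832).

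Genes of the elongation machinery did not share a direction. Of 6 tested, AFF1 fell on both scales and CDK7 was higher relative to mRNA only, against 48.2% of all tested genes that fell on the spike-in scale and 24.5% that were higher relative to mRNA. AFF1, a scaffold of the super elongation complex, went from 75.1% and 70.3% of untreated to 10.4% and 6.92%. Of 6 genes for Pol III and its factors, BDP1, GTF3C3 and POLR3A fell on both scales, while POLR3E and SSB were higher relative to mRNA only, shares near those of all tested genes. POLR3E, a Pol III subunit, kept 103% and 115% of untreated at 1 h and 100% and 170% at 5 h. Relative to mRNA, the calls of CDK7, GTF3C3, POLR3A, POLR3E and SSB were lost without either 1 h library in turn (limma adjusted p = 0.0565 to 0.198), and those of CDK7 and SSB also without replicate 2 of the 5 h group (0.0605 and 0.0762).

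The genes that rose were split in 2 by a set cut, 50% of untreated at 1 h. Of the 267, 166 were under 50% of untreated at 1 h and are called regained here: their median went from 13.9% to 59.1%. Among these 166, 35 had fewer than 20 tags in untreated cells on average. The other 101 were at 50% or more at 1 h, or had no tags in untreated cells, and their median went from 91.4% to 614%. In 157 of the 267, both libraries at 5 h were above both untreated libraries, and 116 of these had fewer than 20 tags in untreated cells on average. Without replicate 1 of the 1 h group, 88 were regained. The remaining 110 stayed at or below an untreated library, going from a median of 10.5% to 33.7%. The filter on low tags can be passed through the 5 h libraries alone, and 157 risers had fewer than 10 tags in each 1 h library, so the number of low genes among the risers is no support for the rise.

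Immediate early genes, which stimuli induce without new protein, were among the regained. Of 26 listed, 9 were tested: 8 were higher relative to mRNA and 5 rose on the spike-in scale, against 24.5% and 10.3% of all tested genes. The median log2 change of the 9 was 1.91 relative to mRNA and 1.03 on the spike-in scale, against -0.09 and -0.89 over all tested genes. Short genes differed from that background as well: under 10 kb, 50.2% were higher relative to mRNA and 13.3% rose on the spike-in scale. Their median log2 changes were 0.95 and 0.10. A part played by span was not tested. The summed level of the list was 10.5% and 14% of untreated at 1 h, and 27.7% and 24.1% at 5 h, so the times did not overlap and both stayed far below untreated cells.

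EGR1, a zinc-finger transcription factor gene, had 18 and 33 tags at 1 h, and 43 and 68 at 5 h in libraries with fewer mRNA tags. Its level was 13.6% and 19.3% of untreated at 1 h, and 48.8% and 97.5% at 5 h. The libraries at 5 h were both higher and lay far apart (log2 2.82 ± 0.36 relative to mRNA, limma adjusted p = 0.000258). Its promoter is shown because it alone, of the 5 promoters found for the 8 genes that were higher relative to mRNA, held the CArG box, the core of the serum response element; capitals mark its 2 boxes.
EGR1 promoter (RefSeq, GRCh38.p14 chr5:138465229-138465528, plus strand): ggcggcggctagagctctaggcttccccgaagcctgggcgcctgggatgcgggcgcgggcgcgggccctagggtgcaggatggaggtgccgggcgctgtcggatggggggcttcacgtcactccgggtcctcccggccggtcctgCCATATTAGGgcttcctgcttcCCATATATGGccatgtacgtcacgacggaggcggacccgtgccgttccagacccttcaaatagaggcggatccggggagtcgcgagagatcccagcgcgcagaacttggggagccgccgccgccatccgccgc
The box, searched for on both strands since it is its own reverse complement in form, occurs in 1.29% of all 27305 promoters of the same length (250 bases before to 50 after the start). A match is a description of the letters only, and a box further from the start would be missed, for the other genes as well.

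MYC, the growth-promoting transcription factor gene, had 232.5 and 499.5 tags at 1 h, and 499 and 341 at 5 h. It went from 20.3% and 28% of untreated to 65.7% and 47.0% (log2 2.11 ± 0.22 relative to mRNA, limma adjusted p = 0.000113; 1.21 ± 0.32 on the spike-in scale, limma adjusted p = 0.000457). KLF4 went from 5.83% and 19.6% to 33.7% and 33.5%, KLF6 from 1.97% and 4.10% to 7.97% and 6.57%, and the matricellular gene CYR61 from 5.87% and 9.26% to 16.6% and 14.2%. KLF6 and CYR61 thus rose from the lowest levels at 1 h and were still far under untreated at 5 h. ATF3, FOS and KLF10 were higher relative to mRNA only, a call that ATF3 lost without replicate 2 of the 1 h group (log2 1.32). The level of ATF3 was 12% and 7.03% at 1 h, and 16.8% and 18.3% at 5 h. KLF4 lost its call relative to mRNA without replicate 1 of the 1 h group (log2 1.58). The spike-in calls of KLF4, KLF6 and CYR61 were lost without replicate 1 of the 1 h group (limma adjusted p = 0.313, 0.175 and 0.14), and each also without 1 or both of the 5 h libraries in turn.

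Genes of mitosis were also among those higher at 5 h. Of 9 tested, 6 were higher relative to mRNA and 2 rose on the spike-in scale, against 24.5% and 10.3% of all tested genes. Their median log2 changes were 1.20 and 0.30. Tested genes under 10 kb gave shares of 50.2% and 13.3%, with medians of 0.95 and 0.10. Those of 10 to 30 kb gave 34.5% and 13.1%, with medians of 0.52 and -0.31. The list was not matched for span. AURKB, the kinase of the chromosomal passenger complex, had 31 and 50 tags at 1 h, and 44.5 and 53.5 at 5 h. Its level was 13.9% and 14% of untreated at 1 h, and 30.0% and 36.7% at 5 h, without overlap (log2 2.05 ± 0.31 relative to mRNA, limma adjusted p = 0.000575). CCNB1, which encodes cyclin B1, went from 10.6% and 17% to 27.1% and 23.5% (log2 1.76 ± 0.28 relative to mRNA, limma adjusted p = 0.000748), and its spike-in rise was close to the threshold (limma adjusted p = 0.0456). UBE2S, TPX2, CDK1 and KIF11 were higher relative to mRNA only, with spike-in log2 changes of 0.09 to 0.77. For TPX2, CDK1 and KIF11 the spike-in levels of the 2 times overlapped. The spike-in rise of AURKB was lost without replicate 1 of the 1 h group or replicate 2 of the 5 h group (limma adjusted p = 0.0775 and 0.171). That of CCNB1 was lost without replicate 1 of the 1 h group (0.202) and without either 5 h library (0.21 and 0.129). Relative to mRNA, TPX2, CDK1 and KIF11 lost their call without replicate 1 of the 1 h group (0.0511, 0.119 and 0.113).

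Housekeeping genes were higher relative to mRNA without a call on the spike-in scale. The 3 ribosomal protein genes tested, RPL27, RPS14 and RPS24, were all higher relative to mRNA, with a median log2 change of 0.75. Over all tested genes 24.5% were higher, and under 10 kb 50.2%, with a median of 0.95. The summed level of the 3 was 36.1% and 47.8% of untreated at 1 h, and 37.3% and 36.9% at 5 h. EEF1A1, a translation elongation factor gene, gave 16.2% and 25.1% at 1 h and 22.4% and 18.2% at 5 h. With the 45S sum in place of the mRNA sum, the change of these 4 genes turned negative, at -0.55 to -0.17, and did not pass. Without replicate 1 of the 1 h group, none of the 4 passed relative to mRNA (limma adjusted p = 0.0694 to 0.167).

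Targets of p53 and genes of the integrated stress response were tested as further lists. Of 6 p53 targets tested, TIGAR, SESN2, ZMAT3 and FDXR fell on the spike-in scale, on which 48.2% of all tested genes fell. TIGAR alone was lower relative to mRNA, a call lost without replicate 1 of the 1 h group (log2 -2.13). TIGAR, a regulator of glycolysis, had 98 and 27 tags at 1 h, and 1 and 0 at 5 h. Its 1 h level was 51.8% in the first library and 6.56% in the second, and the first 1 h library was also the higher for SESN2 (29.8% and 5.46%), ZMAT3 (15.4% and 7.05%) and FDXR (47.0% and 13.3%). All 4 were lower at 5 h than in either 1 h library. Without replicate 1 of the 1 h group, the spike-in calls of SESN2, ZMAT3 and FDXR were lost (limma adjusted p = 0.324, 0.21 and 0.264), as they were without replicate 1 of the 5 h group. Of 10 genes of the integrated stress response, TRIB3, PSAT1, PHGDH and SESN2 fell on the spike-in scale, no larger a share than over all genes. Relative to mRNA, ATF3 and ASNS were higher and TRIB3 lower, and the median log2 change of the 10 was 0.38 (-0.44 on the spike-in scale). TRIB3 (log2 -1.06 and -1.42) and ASNS (1.25 and 1.35) lost this call without either 1 h library in turn. ATF3 lost it without replicate 2 of the 1 h group (1.32). TRIB3 also lost it without replicate 1 of the 5 h group (-1.11), and did not pass in DESeq2 (adjusted p = 0.12). The spike-in call of PHGDH was lost without replicate 2 of the 1 h group (limma adjusted p = 0.0688) or replicate 1 of the 5 h group (0.0856). ASNS, asparagine synthetase, gave 28.1% and 42.8% of untreated at 1 h and 42.3% and 53.1% at 5 h.

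**Figure D3:**
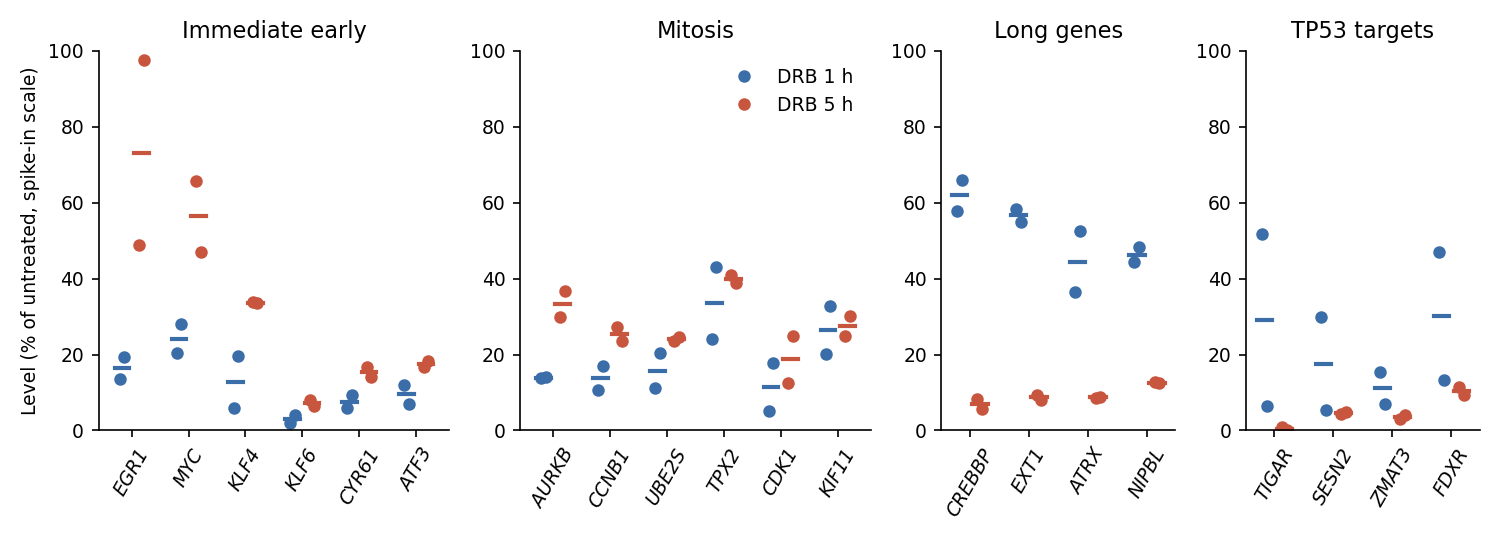
Level of genes of 4 lists in each library at 1 h and 5 h of DRB, in percent of the same-numbered untreated library on the spike-in scale; points are libraries (2 a group), bars are means. Immediate early genes lie higher at 5 h, the long genes and the 4 p53 targets shown lower, and of the p53 targets the 1 h libraries lie far apart.

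A set of genes with little or no signal in untreated cells had high signal at 5 h. In 48 gene regions, both 5 h libraries had at least 10 tags and were more than 2 times above every other library of the series on the spike-in scale. The same rule gave 0 to 4 regions in each of the 7 other groups. With tags per 10M and no spike-in scaling, the number at 5 h was 24.

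GDA, guanine deaminase, had 0 and 2.5 tags at 1 h, and 57 and 39 at 5 h, in a region of 102759 bp (hg38 chr9:72149466-72252224, plus strand, as the files give it). Its spike-in scaled level was 34.1 and 29.6 tags per 10M at 5 h, and the highest of the other 14 libraries gave 1.64. The pooled ratio of 5 h over 1 h was 92.3, with a 95% exact counting interval from 24.9 to 774 (log2 5.22 ± 0.39 relative to mRNA, limma adjusted p = 5.79e-05).

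GYS2, the liver glycogen synthase gene, had 1 and 4 tags at 1 h, and 51 and 31 at 5 h. FGF18, a growth factor gene, had 2 and 8 tags at 1 h and 55.5 and 49.5 at 5 h. In both, no library outside the 5 h group came near, with at most 1.24 tags per 10M for GYS2 and 6.25 for FGF18. MATN2, which encodes a matrix protein, had 15.5 and 21.5 tags at 1 h and 126.5 and 105.5 at 5 h, and IL12RB2, an interleukin 12 receptor subunit, 16 and 18 against 108.5 and 80.5. The last 2 had visible signal in untreated cells, at 8.24 to 10.6 tags per 10M, and were at 846% ± 178 and 602% ± 13.4 of it at 5 h (SD, n = 2).

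NEB, which encodes the giant muscle protein nebulin, had 1 and 11 tags at 1 h, and 49.5 and 24.5 at 5 h. NIM1K, a protein kinase gene, had 13.5 and 24.5 tags at 1 h and 96 and 74.5 at 5 h, at levels of 57.5 and 56.6 tags per 10M. The 5 h libraries lay close together for NIM1K and IL12RB2. ACY1, aminoacylase, a short region of 5686 bp, was at 14.5% and 48.0% of untreated at 1 h and at 147% and 169% at 5 h. RHOH, a GTPase gene of blood cells, rose as well but reached only its untreated level, at 103% and 94.6%. MOBP, a myelin protein gene, and CAMK2B, a neuronal kinase gene, were at 218% ± 19.3 and 456% ± 125 of untreated at 5 h (SD, n = 2).

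**Figure D4:**
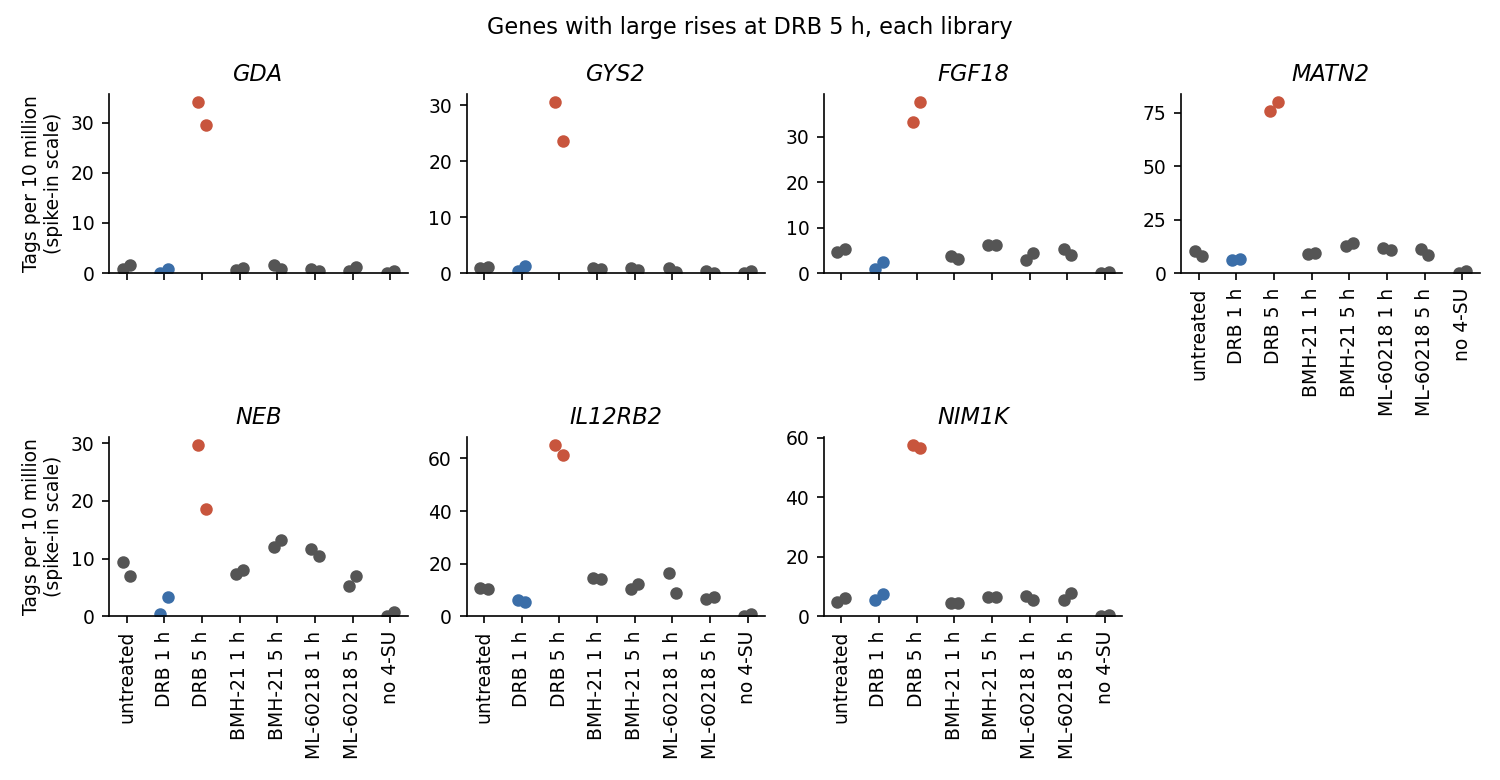
Level of 7 genes with large rises, in each of the 16 libraries, in tags per 10M scaled by the spike-in factor; the axes start at 0. In each gene both DRB 5 h libraries lie above all other libraries, including those of BMH-21 and ML-60218, inhibitors of Pol I and Pol III.

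Some risers lay within 100 kb of each other. Of 122 risers with another tested gene within 100 kb, 37 (30.3%) had a riser there. For genes that fell this was 42 of 518 (8.11%), and for those not called 81 of 482 (16.8%). These counts are a description without a test, since neighbours can share tags. The following examples were singled out after their values were seen. CD79A, a part of the B-cell receptor, had no tags at 1 h, and 30 and 42 at 5 h, and ARHGEF1, 3.08 kb further along chromosome 19 on the same strand, went from 41.9% and 35.8% of untreated to 127% and 105%. LINC01504 lies 53.2 kb past the end of GDA on the same strand, and had 0 and 4 tags at 1 h, and 27.5 and 18 at 5 h. On chromosome 2, the 4 regions COQ10B, RFTN2, BOLL and PLCL1 lie in this order, with gaps of 92.9, 50.9 and 18.1 kb. RFTN2 and BOLL are on the minus strand and the others on the plus strand. Whether other genes lie in the gaps was not examined. RFTN2 had 6 and 13 tags at 1 h and 32.5 and 24.5 at 5 h, BOLL 2.5 and 5.5 against 20 and 10, PLCL1 4 in each library against 22 and 10, and COQ10B 8 and 5 against 20.5 and 10. All 4 were above their 1 h libraries at 5 h on both scales.

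CG pairs were counted in the RefSeq promoters of 300 bases. In 142 of the 267 risers, both 5 h libraries lay above all 14 other libraries. The median count was 13 for the 88 of these 142 with a promoter in the table, 28 for 362 late-lost genes, 26 for 2034 tested genes and 14 over all 27305 promoters. The difference also follows the untreated level: among genes under 20 untreated tags, the median was 11 for those that rose and 5 for those not tested. Single genes spread widely: the counts ran from 2 to 46 in 9 promoters of the named largest rises and from 11 to 50 in 10 of the largest falls. The promoters with the lowest and the highest count of each set are shown, with each CG in capitals.
NEB promoter (RefSeq, GRCh38.p14 chr2:151734427-151734726, minus strand): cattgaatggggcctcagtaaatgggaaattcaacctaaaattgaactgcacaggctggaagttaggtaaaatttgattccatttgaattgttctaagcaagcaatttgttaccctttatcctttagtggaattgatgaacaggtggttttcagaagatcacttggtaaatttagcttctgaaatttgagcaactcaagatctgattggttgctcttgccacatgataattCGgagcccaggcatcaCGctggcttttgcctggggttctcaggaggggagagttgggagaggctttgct
CAMK2B promoter (RefSeq, GRCh38.p14 chr7:44325545-44325844, minus strand): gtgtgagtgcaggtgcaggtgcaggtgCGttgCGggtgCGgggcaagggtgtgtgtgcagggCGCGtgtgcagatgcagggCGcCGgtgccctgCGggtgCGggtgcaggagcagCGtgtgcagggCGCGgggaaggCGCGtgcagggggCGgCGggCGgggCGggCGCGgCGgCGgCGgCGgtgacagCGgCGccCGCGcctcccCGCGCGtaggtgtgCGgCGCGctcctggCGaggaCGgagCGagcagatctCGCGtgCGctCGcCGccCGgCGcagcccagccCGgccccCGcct
SUMF1 promoter (RefSeq, GRCh38.p14 chr3:4467220-4467519, minus strand): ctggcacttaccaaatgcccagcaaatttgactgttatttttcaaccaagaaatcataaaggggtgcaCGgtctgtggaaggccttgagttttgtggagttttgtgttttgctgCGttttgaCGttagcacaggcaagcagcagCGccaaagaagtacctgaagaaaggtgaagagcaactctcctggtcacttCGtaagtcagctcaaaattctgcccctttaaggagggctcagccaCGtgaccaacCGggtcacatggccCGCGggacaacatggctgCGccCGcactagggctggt
KLF15 promoter (RefSeq, GRCh38.p14 chr3:126357359-126357658, minus strand): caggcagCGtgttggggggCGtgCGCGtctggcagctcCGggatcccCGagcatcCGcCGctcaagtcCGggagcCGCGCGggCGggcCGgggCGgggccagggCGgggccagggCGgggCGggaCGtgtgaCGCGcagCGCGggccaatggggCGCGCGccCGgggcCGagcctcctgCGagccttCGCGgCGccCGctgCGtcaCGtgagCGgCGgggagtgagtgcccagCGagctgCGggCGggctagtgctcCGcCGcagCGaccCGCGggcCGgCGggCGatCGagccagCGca

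Lists with few members in the table gave single genes. SPI1, a myeloid transcription factor gene, rose from 1 and 5 tags to 8 and 5.5, and RUNX1 fell on the spike-in scale, from 40.6% and 29.2% to 6.66% and 20.0% of untreated. The spike-in call of SPI1 was lost without replicate 1 of the 1 h group (limma adjusted p = 0.104), and that of RUNX1 without either 1 h library (0.16 and 0.0867) or replicate 1 of the 5 h group (0.258). KIT, GATA1, ITGAM, CD33 and LYL1 were not tested, with at most 3 tags in a 5 h library. NFKBIA, an inhibitor of NF-kappaB, the histone gene HIST1H4H, MSMO1 of cholesterol synthesis and the noncoding OIP5-AS1 were higher relative to mRNA only. These 4 calls were lost without replicate 1 of the 1 h group (limma adjusted p = 0.0829 to 0.238), and each also without other single libraries. The noncoding XACT fell, from 27.7% and 59.7% to 4.99% and 4.69%. MCM5 and GINS1 of DNA replication fell on the spike-in scale only. The call of GINS1 was lost without either 1 h library (limma adjusted p = 0.136 and 0.163) or replicate 1 of the 5 h group (0.324), and that of MCM5 without replicate 2 of the 5 h group (0.0594). The chaperone gene HSP90AA1 (limma adjusted p = 0.0527 relative to mRNA) and the fibrillarin gene FBL (0.0539) did not pass in limma, but were close to the threshold: both passed without TMM (0.042 and 0.0442), and FBL also passed in edgeR (0.0442).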

How the data were processed

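Only libraries named by their labels were used, and the members, gene lists and tests were chosen with earlier results of these data known. The authors deposited signal columns headed as raw counts that, per the file headers, are HOMER tags scaled to 10M per library on hg38, without a strand option. The deposited ratio columns compare spike-in scaled values with untreated, and gave the spike-in factors (0.888 and 1.09 at 1 h, 1.14 and 1.07 at 5 h). The deposited 45S values have the same unit, tags per 10M, named other here. The deposited group means of ratios were not used. Per the submitters' processing notes, the tools were STAR 2.7.7a, HOMER, Trim Galore 0.6.5 and FastQC 0.11.9, on GRCh38 (human) and R64 (yeast); their settings are not given in the sources used here. Stranded libraries were made without rRNA depletion and with 10 PCR cycles, per the labels' protocols.

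Multiplied back, 95029 of 95029 values under 200 tags lay within 0.005 (deposited unit) of a multiple of 0.5 tag. Because the deposited values are scaled, the count test foreseen for unscaled counts was replaced by limma-trend on log2(scaled tags + 2), fitted to the 4 DRB libraries. Adding 2 understates changes of genes with few tags. The filter was filterByExpr of edgeR with a minimum count of 10, which it takes as a rate at the median library size. A 5 h library, being shallower, could thus meet it with fewer tags, as for SPI1 with 8 and 5.5. The filter passed 2599 gene regions, 36 tRNA genes, the 45S units and 5S. Values were scaled by the mRNA sum with TMM factors, or by the spike-in factor, and p-values were adjusted by Benjamini-Hochberg over all features, class sums included. Library totals ran from 14083584 to 35209586 tags in the 4 libraries. Intervals cover counting error only. edgeR's quasi-likelihood test and DESeq2 on recovered tags, rounded for DESeq2, were alternatives. On simulated tags, limma recovered 62.0% of tested genes raised 4-fold and 37.4% of those lowered 4-fold relative to mRNA. Over 3 draws, 150 of the raised and 115 of the lowered genes were tested. It recovered 1.36% of genes raised 2-fold and 1.6% of those lowered 2-fold, and called 0.143% of unchanged genes. Each draw changed 200 genes and gave all genes the same assumed spread. In the data, 53.0% of tested genes were called relative to mRNA, which makes the adjusted threshold easier to pass. The simulated rates therefore do not give the recovery of the fit to the data.

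The genes named are the 12 largest falls and rises relative to mRNA and the 8 on the spike-in scale among called genes with at least 20 tags on average, non-overlapping groups and a characterised name. Up to 6 called members of each list, or the member with the smallest adjusted p, were added, as were the genes said to be singled out. A gene that this rule names and 1 member of the elongation list are not reported here, and the latter is left out of its list. Same-numbered libraries did not deviate together (r = -0.02 on both scales, over genes, for 2 pairs). With 2 pairs this cannot show that the numbers pair nothing, and the main fits used no pairing. Levels in percent of untreated, and the shares of the 1 h level left at 5 h, go by replicate number. Promoters are from RefSeq (GRCh38.p14), matched by symbol. The software was Python 3.11.15 and R 4.3.3, with edgeR 4.0.16, limma 3.58.1 and DESeq2 1.42.0.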

Additional observations from a re-analysis of the deposited data

How the results depend on the processing

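Of 244 results under alternatives, 203 were unchanged, by rules that differed by kind. Test results had to keep their direction and side of the threshold, but those that never passed could change sign. Counts had to stay within 1.5 times. Shares of the 1 h level left at 5 h had to stay within the SD of the 2 replicate ratios. With a replicate number left out, shares could not break this rule, so those results are no support. Of the named gene results, 1623 of 1775 were unchanged by the rule for tests. With the replicate number as a block, which the design gives no reason for, 695 genes were higher and 790 lower relative to mRNA and 251 and 1227 on the spike-in scale, and no class or count changed its call or moved by over 1.5 times; of the named genes, HSP90AA1 and FBL passed relative to mRNA with it (limma adjusted p = 0.013 and 0.0314), and no other changed its call. Without a filter, 405 genes and 6 tRNA genes were higher relative to mRNA, 2 tRNA genes were lower on the spike-in scale, and the relative changes of 45S (0.64) and tRNA (0.33) no longer passed. With all 14 labelled libraries in the fit, 1095 genes and 18 tRNA genes were higher relative to mRNA. DESeq2 called 421 higher and 463 lower. With the 45S sum in place of the mRNA sum, 224 genes were higher and 1396 lower, and 2 tRNA genes were higher and 6 lower. On that scale 5S no longer passed (0.46), and the tRNA sum (-0.31), RPL27 (-0.17), RPS24 (-0.37), RPS14 (-0.55), EEF1A1 (-0.23), KIF11 (-0.13), HIST1H4H (-0.58), MSMO1 (-0.18) and OIP5-AS1 (-0.042) turned negative. Split at 25% of untreated, 1077 genes were lost late. As medians over genes with at least 50 or 20 untreated tags, the share of the 1 h level left at 5 h was 36.3% or 36.6% for 30 to 100 kb, 18.8% or 21.3% for 100 to 200 kb, and 14.5% or 19.8% above 200 kb. Without spike-in scaling, an alternative chosen after seeing the data, 24 regions stood over 2 times above every other library. The cause of these differences was not tested, beyond the scale or the set of genes that each alternative changes.

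With each DRB library left out in turn, which assumes that the lone library of a group varies like the other group, genes called higher numbered 240 to 602 relative to mRNA and 155 to 244 on the spike-in scale, and genes called lower 254 to 757 and 826 to 1088. Late-lost genes numbered 388 to 464 and regained genes 88 to 142. tRNA genes higher and lower numbered 5 to 11 and 0 to 2 relative to mRNA, and 0 to 2 and 1 to 4 on the spike-in scale. The spike-in change of mRNA ran from -1.14 to -0.74 and that of 5S from 0.49 to 0.89, and the relative change of 45S from 1.01 to 1.25. Of the named genes, 77 results lost their call in this way, 34 of them without replicate 1 of the 1 h group. The filter left 7345 of 9944 gene regions untested, and 5716 of these had fewer than 20 tags in untreated cells. The 5 h libraries were shallow, at 65600 and 55845.5 mRNA tags, but a region could also pass through the 1 h libraries.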
